A study of Rattus norvegicus with 9 samples.

Results

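Synovium of an arthritis model was set against control synovium in Lewis rats by RNA sequencing. The arthritis group carries the treatment label AIA and the control group the label NC. The labels do not spell out either abbreviation, and AIA was read as the arthritis model and NC as the control from the series title, which names rheumatoid arthritis. A further label, TZG, marks 3 libraries that enter the shared estimate of spread but are not described. The labels give strain and tissue but no age, sex, dose, time or way of inducing arthritis. The members are 6 of the 9 libraries of the series, chosen by the letter of their count column. The AIA libraries are M2, M6 and M8 and the NC libraries are C56, C59 and C61. M6 and the NC libraries carry a number that is a sample title of their group, whereas M2 and M8 were placed by letter alone. No label says whether each library is a separate animal, and p-values here reflect the variation among these libraries, part of which may be technical.

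Synovium lines the joint. A layer of lining fibroblasts and macrophages secretes the lubricant of joint fluid and rests on a sublining of fibroblasts, vessels, nerve and fat. In inflammatory arthritis leukocytes enter this tissue, the lining thickens and its fibroblasts release enzymes that attack cartilage, while osteoclasts erode the adjoining bone. Bulk RNA of such tissue mixes all these cells, and fewer cells of a type cannot be told apart from less RNA per cell.

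Totals were 13471552, 14295934 and 14335920 reads in M2, M6 and M8, and 15800852, 15378480 and 12536231 reads in C56, C59 and C61. A count of 0 allows up to 3 reads, or 0.190 to 0.265 CPM (a gene's reads scaled to a common library size) in one library, which covers counting error only. The dissected tissue was not uniform. NC library C61 held 35214 CPM of 21 skeletal muscle genes, against 1862 and 132 CPM in C59 and C56 and 39.4 to 68.8 CPM in the AIA libraries, and its mitochondrial transcripts made up 14.3% of reads, against 5.93% to 8.52% elsewhere. AIA library M8 held 15300 CPM of 17 erythroid genes, against 2473 and 2312 CPM in M2 and M6 and 685 to 2379 CPM in the NC libraries. Where leaving out 1 library moved the median of a gene list by over 1.5 times, the value without it is given beside it, except for medians below 0.1 in size. Prg4, the lubricin of joint fluid and a marker of the labelled tissue, was present in every library. It stood at 6927, 2773 and 3445 CPM in M2, M6 and M8 and at 7303, 6653 and 1269 CPM in C56, C59 and C61. The synovial fibroblast list was likewise lowest in C61. Its summed level was 15060, 10324 and 8885 CPM in M2, M6 and M8 and 15804, 15939 and 6081 CPM in C56, C59 and C61.

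Of 15068 genes tested, 1 rose and 1 fell at a Benjamini-Hochberg adjusted p under 0.05 in edgeR's quasi-likelihood test, which is 0.00664% of genes in each direction. At an unadjusted p under 0.05 there were 1244 higher and 1020 lower genes in AIA. The gene that rose was Plac8 (ENSRNOG00000002217, chromosome 14, 10692764 to 10714524 in the deposited table's coordinates), which encodes a small cysteine-rich protein found in leukocytes and epithelia. It had 49.0, 77.1 and 77.1 CPM in M2, M6 and M8, against 20.0, 16.9 and 19.7 CPM in C56, C59 and C61. Every AIA library lay above every NC library, and the log2 fold change was 1.84 ± 0.19 (SE; adjusted p = 0.0402 in edgeR). The gene that fell was Nr1d1 (ENSRNOG00000009329, chromosome 10, 86683875 to 86690815), which encodes REV-ERB alpha, a nuclear receptor that represses transcription within the circadian clock. It had 61.5, 47.9 and 50.8 CPM in M2, M6 and M8, against 146, 198 and 174 CPM in C56, C59 and C61, a log2 fold change of -1.69 ± 0.15 (SE; adjusted p = 0.0305 in edgeR). Its 3 AIA libraries lay close together and all below the NC libraries.

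Differences that hold in every library pair were far more numerous than calls. They are a description and not a test. With 3 libraries a group, some genes separate in this way without any group effect, and how many was not tested. A gene was counted as higher in every pair where the lowest AIA library exceeded the highest NC library, which held for 1694 genes or 11.2% of those tested. In the other direction 1390 genes, or 9.22%, were lower in every pair. These shares are the background for the counts of every gene list below. When the nearest AIA and NC libraries also had to lie at least 2-fold apart, 202 genes (1.34%) were higher and 36 (0.239%) were lower. Of the 202, 143 had a mean below 1 CPM in NC and 30 had no NC read. Together the 202 genes held 2298, 3580 and 9696 CPM in M2, M6 and M8, against 318, 390 and 356 CPM in C56, C59 and C61, with M8 the highest AIA library; the direction of these sums is set by how the genes were picked. With counts under 3 set to 3 reads and no prior count, 215 genes were at least 2-fold higher, 185 of them among the 202, and 17 of the 30 without an NC read were still counted. The 36 lower genes held 165, 115 and 139 CPM in M2, M6 and M8, against 465, 1900 and 28606 CPM in C56, C59 and C61, so most of their NC reads came from C61. DESeq2, a further count test, called 554 of the tested genes higher (3.69%) and 329 lower (2.19%), and 97.3% of its higher calls and 92.1% of its lower calls held in every pair. The authors' deposited table lists as many as 557 genes as higher and 296 as lower at q under 0.05. Of the authors' higher calls among tested genes 85.0% were also called by DESeq2, which is 78.7% of DESeq2's; for lower calls these shares were 79.8% and 52.9%. With 1 library left out, edgeR's counts of higher and lower calls were 90 and 8 without M2, 13 and 1 without M8, 1 and 4 without C61, 5 and 1 without G48, and 0 and 0 without any one of M6, C56, C59, G30 and G31; G30, G31 and G48 are the TZG libraries. Plac8 was not the higher call without C61 (adjusted p = 0.0543 in edgeR), which was Myh9l1, whereas Nr1d1 was among the 4 lower ones (adjusted p = 0.0368 in edgeR).

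**Figure D1:**
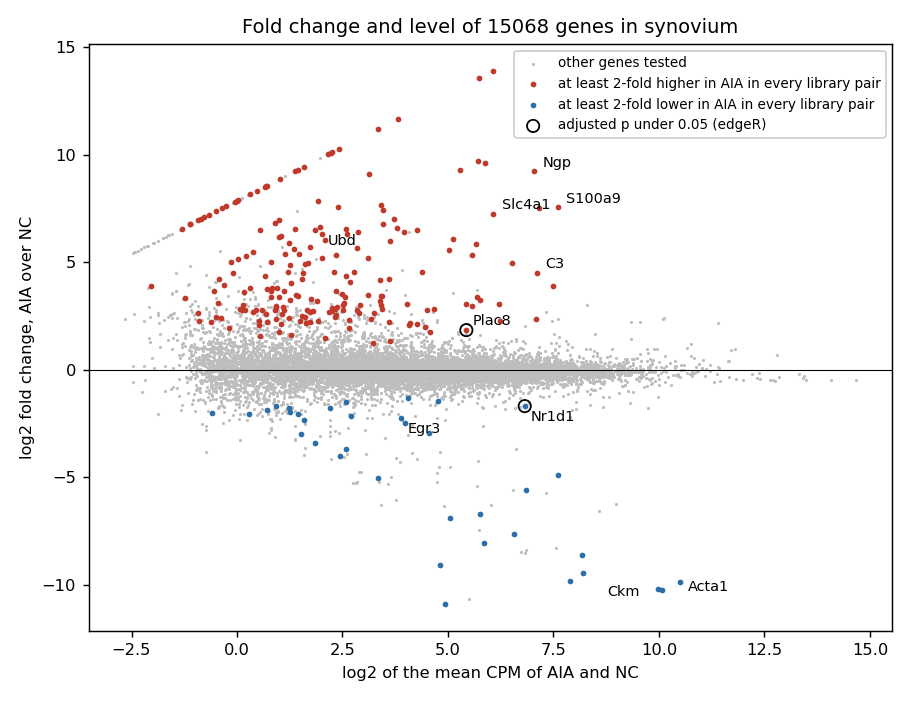
Log2 fold change of AIA over NC (vertical axis) against the log2 of the mean CPM of both groups (horizontal axis), 1 point per tested gene. Red points are the 202 genes at least 2-fold higher in AIA in every library pair, blue points the 36 at least 2-fold lower, and circles mark Plac8 and Nr1d1; the straight upper edge at the left is formed by genes with no NC read, whose fitted fold depends on the prior count.

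Among the 10 genes with the smallest p in the higher direction were a complement gene, an interleukin with its antagonist, and leukocyte receptors. Cfp, properdin, which stabilises the enzyme of the alternative complement pathway, had 24.3, 40.04 and 41.4 CPM in M2, M6 and M8, against 8.06, 8.62 and 10.1 CPM in C56, C59 and C61. Ubd, a ubiquitin-like protein induced by tumour necrosis factor and interferon gamma, had 7.04, 16.1 and 6.55 CPM in M2, M6 and M8, against 0.190, 0.198 and 0.353 CPM in C56, C59 and C61 (log2 fold change 5.32 ± 0.62, SE). Il1b, the cytokine interleukin 1 beta, had 5.72, 10.7 and 10.9 CPM in M2, M6 and M8, against 0.952, 0.987 and 1.76 CPM in C56, C59 and C61. For these genes no AIA library came near the NC range. Il1rn, the natural antagonist of the interleukin 1 receptor, had 7.48, 22.4 and 17.7 CPM in AIA and 1.71, 1.19 and 1.32 CPM in NC, a log2 fold change of 3.48 ± 0.50 (SE). Csf3r, the receptor of the growth factor of granulocytes, had 17.8, 30.1 and 72.2 CPM in AIA and 1.33, 1.71 and 2.21 CPM in NC. Cd8a, a co-receptor of cytotoxic T cells, had 3.67, 9.84 and 4.89 CPM in AIA and 0.444, 0.790 and 0.618 CPM in NC. Agonist and antagonist of the interleukin 1 receptor were thus both higher in every pair. Mt1, a metal-binding metallothionein, and Tpd52, a protein of vesicle traffic, were also among the 10, with log2 fold changes of 2.15 and 1.34. Adjusted p in edgeR was 0.0582 for Cfp and Ubd and 0.0752 for the other genes of this paragraph.

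Because nuclear factor kappa B drives inflammatory genes, the promoter of Ubd is shown with its match to the pattern GGG, any 2 bases, TTTCC in capitals, searched on both strands. The sequence is the 250 bases before the RefSeq start in build GRCr8, minus strand, chr20:1392686-1392935.
Ubd: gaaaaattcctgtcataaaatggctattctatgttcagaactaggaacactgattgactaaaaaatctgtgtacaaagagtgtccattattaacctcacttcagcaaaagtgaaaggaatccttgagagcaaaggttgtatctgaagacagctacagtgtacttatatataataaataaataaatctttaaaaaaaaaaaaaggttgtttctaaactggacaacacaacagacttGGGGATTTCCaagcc
The match starts 15 bases before the start of the gene, and 1.3% of all 33469 RefSeq promoter windows of this length hold at least 1. The letters describe the sequence and do not show a bound site.

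In the lower direction the 10 smallest p belonged to genes of varied function. Col4a5, a chain of basement membrane collagen IV, had 16.6, 18.1 and 13.2 CPM in M2, M6 and M8, against 41.8, 37.3 and 32.5 CPM in C56, C59 and C61 (log2 fold change -1.22 ± 0.17, SE). Fhl1, a LIM-domain protein abundant in muscle, had 210, 150 and 174 CPM in AIA and 323, 379 and 355 CPM in NC. Cobl, an actin nucleator, had 3.59, 2.51 and 3.31 CPM in AIA and 9.71, 8.29 and 8.73 CPM in NC. In each of these the AIA and NC libraries were tightly grouped and did not overlap. Adcy3, an enzyme that makes cyclic AMP, had 73.6, 68.4 and 57.4 CPM in AIA and 140, 113 and 114 CPM in NC. Cuedc1, Galnt18, Plac9 and Nr1d2, the paralog of Nr1d1, had log2 fold changes of -0.71, -0.78, -0.81 and -0.93. Adjusted p in edgeR for the genes of this paragraph ran up to 0.0923 (Nr1d2).

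**Figure D2:**
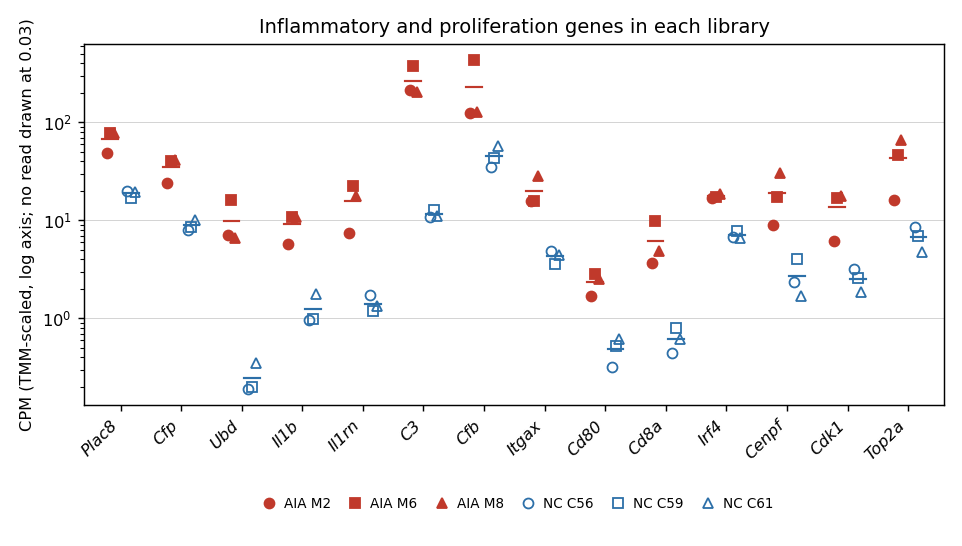
CPM on a log axis of 14 immune, complement and cell cycle genes in each library, with AIA (red, filled) left of NC (blue, open) and short lines at the group means. All 3 AIA points of each gene lie above all 3 NC points, from Plac8 at 49.0 to 77.1 against 16.9 to 20.0 CPM to Top2a at 16.3 to 66.4 against 4.76 to 8.50 CPM.

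Granulocyte genes gave the widest gaps between the groups. Of 24 neutrophil genes 22 were tested, and 20 of these were higher in AIA in every pair and none lower; the median log2 fold change was 5.97, against -0.01 over all genes. Without M8 the median was 4.35, and with the 4 tested genes without an NC read set to their lower bounds it was 5.18. S100a9, a subunit of the calcium-binding protein calprotectin, had 99.2, 122 and 937 CPM in M2, M6 and M8, against 2.22, 0.987 and 2.91 CPM in C56, C59 and C61. Ngp, neutrophilic granule protein, had 53.3, 50.8 and 688 CPM in AIA and 0.571, 0.263 and 0.441 CPM in NC. Both stood highest in M8, and in M2 and M6 both were still far above the NC libraries. Mmp8, the neutrophil collagenase, had 24.0, 30.1 and 297 CPM in AIA and 0.254, 0 and 0.176 CPM in NC, and Camp, a cathelicidin, had 16.5, 17.5 and 201 CPM in AIA and 0.317, 0 and 0 CPM in NC. The defensins Np4 and Defa5 had no NC read. Np4 had 19.2, 24.0 and 357 CPM in AIA, and Defa5 had 19.9, 18.4 and 280 CPM. Their AIA means of 133 and 106 CPM were at least 1879.6-fold and 1496-fold higher than the floor of 3 reads over the NC group. M8 dominates these means, and the bounds are lower for M2 and M6. Rat defensins are near-identical copies, so the split of reads between Np4, Defa5 and RatNP-3b (25.6, 17.2 and 271 CPM in AIA and 0.317, 0 and 0 CPM in NC) is uncertain. Ltf, a defining gene of the secondary granules, had 1 read in all and Cxcr1 none, so not every neutrophil marker was present. DESeq2 called 15 of 20 neutrophil genes with an adjusted p higher and none lower; edgeR called none.

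Genes of immature marrow cells followed the same order. Of 14 granulocyte precursor genes tested, 11 were higher in AIA in every pair, with a median log2 fold change of 6.28 (4.94 without M8). With the 4 tested genes without an NC read set to their lower bounds the median was 5.69. Elane, neutrophil elastase, which is transcribed in marrow precursors, had 3.44, 2.71 and 46.3 CPM in M2, M6 and M8, against 0.0634, 0 and 0 CPM in C56, C59 and C61. Ctsg, cathepsin G of the same granules, had 3.67, 2.38 and 54.5 CPM in AIA and no NC read. For both genes M8 stood well above M2 and M6, which lay near each other. Fcnb, a ficolin of myeloid cells, had 21.0, 75.1 and 201 CPM in AIA and 0.634, 1.98 and 2.65 CPM in NC. Prg2, the major basic protein of eosinophils, had 9.31, 7.06 and 48.8 CPM in AIA and 0.190, 0 and 0.176 CPM in NC. Mcpt8, in mouse a protease of basophils, had 2.93, 3.33 and 21.7 CPM in AIA and no NC read. Its AIA mean, which M8 dominates, was at least 131-fold higher than the floor of 3 reads over the NC group. Mpo, myeloperoxidase, overlapped between the groups, with 103, 66.7 and 309 CPM in AIA and 38.8, 56.2 and 108 CPM in NC.

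Erythroid and platelet genes were also highest in M8. Of 17 erythroid genes, 14 were higher in AIA in every pair, with a median log2 fold change of 5.68 (3.75 without M8). Slc4a1, the anion exchanger of the red cell membrane, had 34.3, 26.1 and 343 CPM in M2, M6 and M8, against 0.634, 0.724 and 1.32 CPM in C56, C59 and C61. Ahsp, which stabilises alpha globin, had 10.6, 3.87 and 68.3 CPM in AIA and 0.381, 0.263 and 0.176 CPM in NC. The 3 that overlapped were Hba-a2, Hbb and Sptb. Hba-a2, an alpha globin, had 1691, 1621 and 9963 CPM in AIA and 493, 729 and 1732 CPM in NC, and reads of alpha globin copies cannot be split with certainty. Sptb, beta spectrin of the red cell membrane, had 12.0, 9.03 and 113 CPM in AIA and 1.84, 2.83 and 22.5 CPM in NC, where C61 lay above M2 and M6. Klf1, a master regulator of red cell genes, had 3.96, 3.39 and 31.9 CPM in AIA and 1.01, 0.395 and 0.176 CPM in NC. Of 12 megakaryocyte and platelet genes 5 were higher in every pair, with a median log2 fold change of 1.91 (1.23 without M8). Ppbp, a platelet chemokine, had 4.25, 1.22 and 17.2 CPM in AIA and 0, 0 and 0.0882 CPM in NC. DESeq2 called 7 of 9 erythroid genes with an adjusted p and 4 of 12 platelet genes higher. Several cartilage and bone genes were also high in M8, as given below, and the part of these tissues or of blood in the granulocyte result was not tested.

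**Figure D3:**
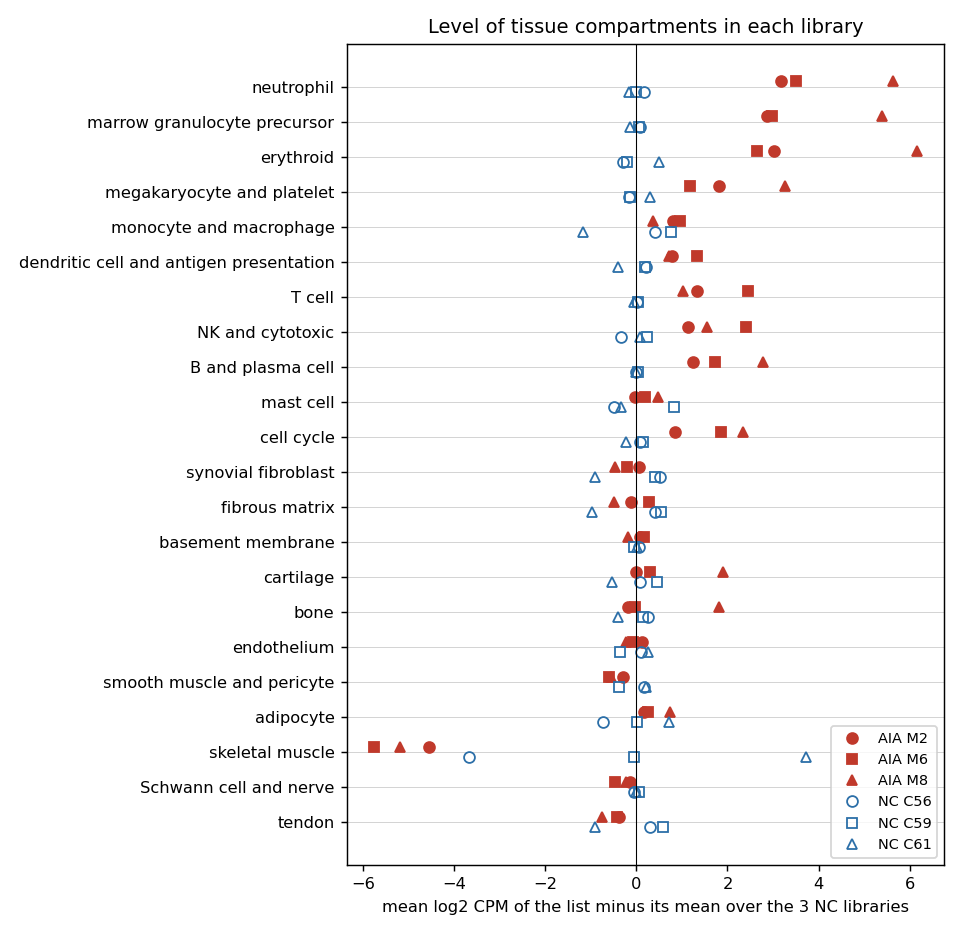
Mean log2 CPM of the tested genes of 22 lists in each library, as the difference from the mean of the 3 NC libraries (horizontal axis); AIA libraries are filled red and drawn above the open blue NC libraries. AIA and NC libraries separate for granulocyte, erythroid, platelet, lymphocyte and cell cycle lists, with M8 highest in the blood and marrow lists, and C61 lies apart in skeletal muscle.

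Many lymphocyte genes were higher in AIA at low levels. Of 26 T cell genes 23 were tested and 13 were higher in every pair, with a median log2 fold change of 2.36 (1.49 without M6). The summed level of the T cell list overlapped, at 180, 254 and 131 CPM in M2, M6 and M8 and 163, 215 and 59.3 CPM in C56, C59 and C61. The sums of the NK and cytotoxic list and of the B and plasma cell list did not overlap. Cd2, an adhesion receptor of T and NK cells, had 2.86, 5.43 and 1.93 CPM in M2, M6 and M8, against 0.507, 0.395 and 0.353 CPM in C56, C59 and C61, and Cd3e, a chain of the T cell receptor complex, had 3.005, 5.498 and 2.21 CPM in AIA and 0.698, 0.461 and 0.618 CPM in NC. Here M6 was the highest library and M8 the lowest, unlike in the granulocyte genes. Foxp3, the regulator of regulatory T cells, overlapped, with 1.39, 2.04 and 1.79 CPM in AIA and 1.46, 1.32 and 3.26 CPM in NC. Of 12 tested NK and cytotoxic genes 8 were higher in every pair, with a median of 2.01 (1.25 without M6), among them Nkg7 at 4.18, 5.29 and 26.5 CPM in AIA and 0.507, 0.329 and 1.32 CPM in NC, and Gzma, a granule protease, at 0.806, 1.76 and 1.45 CPM in AIA and 0.127, 0.395 and 0.265 CPM in NC. Cst7, a protease inhibitor of cytotoxic cells, had 5.94, 13.6 and 11.9 CPM in AIA and 1.46, 2.83 and 2.03 CPM in NC. Of 20 tested B and plasma cell genes 13 were higher and 1, Sdc1, was lower in every pair, with a median of 2.29 (1.71 without M8). Irf4, a transcription factor of plasma cells, had 16.9, 17.2 and 18.5 CPM in AIA and 6.72, 7.77 and 6.62 CPM in NC, and Jchain, which joins immunoglobulin multimers, had 3.88, 11.5 and 57.8 CPM in AIA and 0.254, 0.658 and 0.176 CPM in NC. Cd22, an inhibitory receptor of B cells, had 8.06, 17.2 and 9.58 CPM in AIA and 2.73, 4.28 and 1.41 CPM in NC. DESeq2 called 8 of 23 T cell, 3 of 12 NK and 10 of 20 B and plasma cell genes higher and none lower; edgeR called none.

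Macrophage genes did not separate the groups as a whole. Of 20 tested genes 2 were higher in every pair, or 10.0%, close to the 11.2% over all genes, and the median log2 fold change of 0.52 was 0.29 without M6 and 0.088 without C61, in which the muscle genes were high. Itgax, an integrin of dendritic cells and macrophages, had 15.8, 15.8 and 28.6 CPM in M2, M6 and M8, against 4.82, 3.62 and 4.41 CPM in C56, C59 and C61. Fcgr1a, the high-affinity receptor of immunoglobulin G, had 27.4, 40.2 and 30.7 CPM in AIA and 17.4, 21.7 and 7.76 CPM in NC. Lyz2, the lysozyme of myeloid cells, overlapped at 1387, 2831 and 3063 CPM in AIA and 1362, 1468 and 337 CPM in NC. Genes of resident lining macrophages such as Vsig4 overlapped too, with 90.7, 32.4 and 31.6 CPM in AIA and 110, 138 and 25.5 CPM in NC. Fc receptor and ITAM signalling genes were higher in every pair for 11 of 16 tested genes, with a median of 0.97 (0.65 without C61). Fcgr3a, a low-affinity receptor of immunoglobulin G, had 11.4, 11.1 and 7.58 CPM in AIA and 1.59, 3.29 and 2.91 CPM in NC. Tyrobp, the adaptor DAP12 of many myeloid receptors, had 73.2, 95.02 and 106 CPM in AIA and 56.0, 46.5 and 32.6 CPM in NC. Of 23 tested genes of dendritic cells and antigen presentation 10 were higher in every pair, with a median of 0.85 (0.53 without C61). Cd80, a co-stimulatory ligand, had 1.69, 2.85 and 2.55 CPM in AIA and 0.317, 0.527 and 0.618 CPM in NC. DESeq2 called 1 macrophage, 5 Fc receptor and 2 antigen presentation genes higher and none lower. Mast cell genes overlapped in all 9 tested cases.

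Genes of dividing cells were higher in AIA in nearly every case. Of 31 cell cycle genes 28 were higher in every pair and none lower, the median log2 fold change was 1.84 (1.45 to 2.21 with 1 library left out), and DESeq2 called 24 higher. Top2a, the topoisomerase that untangles replicated DNA, had 16.3, 46.8 and 66.4 CPM in M2, M6 and M8, against 8.50, 6.98 and 4.76 CPM in C56, C59 and C61. Cdk1, the kinase that starts mitosis, had 6.23, 17.04 and 17.6 CPM in AIA and 3.17, 2.57 and 1.85 CPM in NC, and Cenpf, a kinetochore protein, had 8.87, 17.4 and 30.5 CPM in AIA and 2.35, 4.02 and 1.68 CPM in NC. In all 3 genes M2 was the lowest AIA library. The marrow precursor genes were likewise highest in M8, and their part in the cell cycle result was not tested.

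Classical cytokines of arthritis were near the detection limit, apart from the interleukin 1 pair. Tnf, tumour necrosis factor, had 0.953, 1.63 and 0.689 CPM in M2, M6 and M8, against 0.381, 0.593 and 0.353 CPM in C56, C59 and C61. Il6 had 0.953, 1.36 and 0 CPM in AIA and 0.825, 0.527 and 0 CPM in NC, so the groups overlapped. Ifng, Il17f and Il12b had no read in any of the 6 libraries. Of 25 cytokine genes 16 were tested, and 4 of these were higher in every pair, with a median log2 fold change of 0.71 (0.29 without M6 and 0.35 without C61). Among chemokines and their receptors 11 of 29 tested genes (37.9%) were higher in every pair, with a median of 1.22. Cxcl14, a chemokine of fibroblasts and epithelia, had 376, 382 and 122 CPM in AIA and 47.5, 77.1 and 56.1 CPM in NC (log2 fold change 2.28 ± 0.50, SE). Ccl2, which attracts monocytes, had 14.1, 15.5 and 6.69 CPM in AIA and 4.95, 2.96 and 4.32 CPM in NC, and Ccl19, a homing chemokine of lymphoid tissue, had 20.4, 18.1 and 4.41 CPM in AIA and 2.41, 3.16 and 2.29 CPM in NC. For these chemokines M8 was the lowest AIA library. Cxcr2, a neutrophil receptor of other chemokines, had 11.7, 11.4 and 33.4 CPM in AIA and 1.08, 2.17 and 2.91 CPM in NC. DESeq2 called 6 of the 29 genes higher.

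Of 31 genes of nuclear factor kappa B signalling and inflammasomes 11 were higher and 1, Rela, was lower in every pair. The share higher was 35.5%, against 11.2% over all genes, and the median log2 fold change was 0.36 (0.56 without C59). Nlrp3, an inflammasome sensor, had 11.7, 16.42 and 15.4 CPM in M2, M6 and M8, against 5.07, 6.98 and 3.35 CPM in C56, C59 and C61. Nlrc4, a sensor of bacterial proteins, had 4.54, 11.2 and 10.6 CPM in AIA and 1.90, 1.32 and 0.353 CPM in NC, and Birc3, an inhibitor of cell death, had 13.9, 19.1 and 13.9 CPM in AIA and 9.13, 6.71 and 7.85 CPM in NC. Among interferon response genes 1 of 27 was higher and 2 were lower in every pair, the median was 0.04, and it was -0.16 without M8. Ifit1 was the higher one, at 0.513, 0.815 and 6.34 CPM in AIA and 0, 0 and 0.176 CPM in NC. DESeq2 called 9 nuclear factor kappa B genes higher and 1 lower, and 1 interferon gene higher.

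Complement C3 stood apart among complement genes. C3, the central component of complement, had 214, 379 and 203 CPM in M2, M6 and M8, against 10.7, 12.8 and 11.1 CPM in C56, C59 and C61 (log2 fold change 4.52 ± 0.87, SE; adjusted p = 0.099 in edgeR and 2.89e-05 in DESeq2). Cfb, factor B, which pairs with C3 in the alternative pathway, had 125, 430 and 127 CPM in AIA and 34.8, 43.5 and 56.8 CPM in NC. With properdin (Cfp, above), 3 components of the alternative pathway were therefore at least 2-fold higher in every pair. C4b of the classical pathway had 5213, 5372 and 3603 CPM in AIA and 1890, 3216 and 2105 CPM in NC, and C4a, a near copy of it, had 144, 170 and 112 CPM in AIA and 37.99, 84.9 and 35.02 CPM in NC. The C1q chains overlapped, as C1qa with 260, 263 and 139 CPM in AIA and 209, 259 and 70.2 CPM in NC. Over the list 7 of 24 tested genes (29.2%, against 11.2% over all genes) were higher and none lower in every pair. The list had a median of 0.48 (0.74 without C59), and DESeq2 called 5 of its genes higher.

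Enzymes that degrade matrix varied in which AIA library was highest. Of 26 tested proteases and inhibitors 7 (26.9%, against 11.2% over all genes) were higher and 1, Timp3, was lower in every pair. The median log2 fold change was 0.29 (0.47 without M8, 0.57 without C56 and 0.48 without C59). Mmp9, gelatinase B of neutrophils and osteoclasts, had 15.5, 21.7 and 169 CPM in M2, M6 and M8, against 1.46, 0.724 and 0.794 CPM in C56, C59 and C61. Mmp13, a collagenase of fibroblasts and cartilage, had 5.42, 3.19 and 19.7 CPM in AIA and 0.190, 0.790 and 0.176 CPM in NC. Mmp3, stromelysin of synovial fibroblasts, had 362, 408 and 63.8 CPM in AIA and 59.7, 63.5 and 5.29 CPM in NC, so M8 only just exceeded C59. Its log2 fold change was 2.69 ± 1.02 (SE; adjusted p = 0.262 in edgeR). DESeq2 called 1 of the 25 genes with an adjusted p higher and none lower.

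Lining and sublining fibroblast genes overlapped between the groups. Of 27 genes 1, Clu, was higher in every pair and none lower; the list's median log2 fold change was -0.28, and it ran from -0.53 without C61 to 0.05 without C56. It was -0.48 without M2, -0.18 without M6, -0.12 without M8 and -0.18 without C59, so leaving out any of the 6 libraries moved it by over 1.5 times. Clu, a secreted chaperone, had 2135, 2425 and 1721 CPM in M2, M6 and M8, against 1221, 1232 and 1639 CPM in C56, C59 and C61. Clic5, a chloride channel protein of lining fibroblasts, had 511, 176 and 272 CPM in AIA and 1160, 1325 and 347 CPM in NC, and Cd55, a complement regulator on lining fibroblasts, had 73.1, 32.1 and 39.98 CPM in AIA and 171, 279 and 32.2 CPM in NC. In both, C61 lay within or near the AIA range and the other NC libraries above it. DESeq2 called Clic5 lower (adjusted p = 0.0312). Among 28 fibrous matrix genes none was higher and 3 were lower in every pair, or 10.7%, close to the 9.22% over all genes. The median of the list was -0.16. That median ran from -0.49 without C61 to 0.07 without C59, and was -0.09 without M2, -0.48 without M6, -0.02 without M8 and -0.04 without C56. Elastin, Eln, had 449, 476 and 430 CPM in AIA and 895, 532 and 766 CPM in NC. Basement membrane genes split by chain: 7 of 22 were higher and 4 lower in every pair, and the 4 lower were the collagen IV chains Col4a3, Col4a4, Col4a5 and Col4a6. Col4a4 had 28.1, 29.7 and 20.8 CPM in AIA and 53.7, 53.2 and 35.0 CPM in NC, and Col4a3 had 9.60, 7.80 and 7.17 CPM in AIA and 16.8, 18.8 and 9.79 CPM in NC. Col4a1, the common chain of vessels, had 3634, 4115 and 3153 CPM in AIA and 2949, 2304 and 3050 CPM in NC. Lama1, a laminin chain, had 1.25, 4.07 and 0.620 CPM in AIA and 0.0634, 0 and 0.0882 CPM in NC. DESeq2 called 3 of these basement membrane genes lower and 1 higher.

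Several cartilage and bone genes were highest in M8. The summed level of the cartilage list was not, at 1544, 1144 and 1176 CPM in M2, M6 and M8 and 1321, 1661 and 839 CPM in C56, C59 and C61, while that of the bone list was, at 58.7, 71.5 and 167 CPM in AIA and 77.8, 84.8 and 39.9 CPM in NC. No cartilage gene was higher or lower in every pair among 18 tested, and the median log2 fold change of 1.05 became -0.17 without M8. Col2a1, the collagen of cartilage, had 0.220, 7.33 and 91.7 CPM in M2, M6 and M8, against 0.317, 0.198 and 0.706 CPM in C56, C59 and C61. Acan, aggrecan, had 2.71, 11.9 and 22.7 CPM in AIA and 0.507, 4.28 and 0 CPM in NC. Bglap, osteocalcin of osteoblasts, had 0.0733, 0.204 and 19.6 CPM in AIA and 0.317, 0.461 and 0.353 CPM in NC, and the bone median of 0.48 became -0.25 without M8. M8 is also the library with the most granulocyte precursor and erythroid RNA. Of 11 tested osteoclast genes 4 were higher in every pair, or 36.4%, against 11.2% over all genes. Mmp9, given above, is among these and is also a member of the neutrophil list. The part of blood or marrow cells in this count was not tested. Oscar, a receptor on osteoclasts and myeloid cells, had 1.83, 6.52 and 10.3 CPM in AIA and 0.127, 0.198 and 0.265 CPM in NC, and Acp5, tartrate-resistant acid phosphatase, had 46.7, 54.6 and 80.1 CPM in AIA and 22.5, 38.3 and 43.8 CPM in NC. Ctsk, cathepsin K, the main protease of osteoclasts, overlapped with 100, 121 and 111 CPM in AIA and 130, 153 and 36.5 CPM in NC, and Dcstamp, which drives osteoclast fusion, had no read in the 6 libraries. DESeq2 called 3 osteoclast genes and 1 cartilage gene higher and no bone gene.

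Vessel, fat and nerve genes overlapped for the most part. Among 22 tested endothelial genes 2 were higher and 2 lower in every pair, close to the share over all genes. Selp, P-selectin, which captures leukocytes on vessel walls, had 142, 175 and 104 CPM in M2, M6 and M8, against 71.6, 42.3 and 53.0 CPM in C56, C59 and C61, and Icam1, a leukocyte ligand, had 114, 98.8 and 83.4 CPM in AIA and 76.2, 76.4 and 65.6 CPM in NC. Emcn, a sialomucin of resting endothelium, had 114, 98.4 and 114 CPM in AIA and 146, 115 and 177 CPM in NC. The 2 endothelial genes higher in every pair were Selp and Icam1. DESeq2 called Selp but not Icam1, for which M8 lay just above C59. Of 15 smooth muscle and pericyte genes 4 were lower in every pair and none higher. That is 26.7% lower, against 9.22% over all genes. All 15 had a log2 fold change below 0, with a median of -0.43. The summed level of this list overlapped, with 5594, 4228 and 4398 CPM in AIA and 7597, 4917 and 7868 CPM in NC. M2 lay above C59 there. Des, desmin, had 173, 177 and 136 CPM in AIA and 282, 188 and 1038 CPM in NC, C61 being highest. It separated only narrowly, C59 lying just above M6. Of 16 tested Schwann cell genes 4 were lower in every pair, with a median of -0.33 (-0.17 without M6 and -0.18 without C61). Of 10 tested tendon genes 4 were lower in every pair, with a median of -0.91. The share lower over all genes, for this list and the Schwann cell list, was 9.22%. The summed level of the tendon list overlapped, with 1520, 1384 and 1068 CPM in AIA and 2240, 3084 and 752 CPM in NC. C61 lay below every AIA library there, so the list as a whole did not separate the groups. Of 27 fat genes 3 were higher in every pair, or 11.1%, close to the 11.2% over all genes. The median of the fat list, 0.20, was 0.67 without C61, 0.11 without C59 and -0.097 without C56. Pck1, which supplies glycerol for fat storage, had 1017, 648 and 1177 CPM in AIA and 181, 411 and 463 CPM in NC.

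Skeletal muscle genes were the lowest of all lists in AIA, and 1 NC library set their size. Of 19 tested genes 15 were lower in every pair, with a median log2 fold change of -8.06 that was -4.45 without C61. Acta1, skeletal actin, had 6.45, 1.49 and 1.31 CPM in M2, M6 and M8, against 18.0, 455 and 8195 CPM in C56, C59 and C61. Ckm, muscle creatine kinase, had 4.32, 0 and 0.827 CPM in AIA and 19.0, 249 and 5770 CPM in NC. The NC libraries thus differed among themselves far more than C56 differed from the AIA libraries. Cacng1, a calcium channel subunit of muscle, had 1.03, 0.339 and 0.413 CPM in AIA and 4.82, 7.04 and 47.6 CPM in NC. Hjv, hemojuvelin, an iron regulator that muscle also makes, had 0, 0.0679 and 0 CPM in AIA and 1.46, 10.9 and 172 CPM in NC. DESeq2 called 17 of the 19 lower. Among the 10 lower genes with the widest gaps, Car8, a protein related to carbonic anhydrase, did not peak in C61: it had 1.17, 0.407 and 1.38 CPM in AIA and 5.39, 4.41 and 5.20 CPM in NC. Respiratory chain genes overlapped in all 21 nuclear and 13 mitochondrial cases, and their medians of -0.15 (nuclear) and -0.43 (mitochondrial) were 0.26 and 0.085 without C61. The nuclear one was -0.067 without M2, -0.23 without M8, -0.32 without C56 and -0.27 without C59, and the mitochondrial one -0.65 without C56. Those of hypoxia and glycolysis had a median of 0.02.

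**Figure D4:**
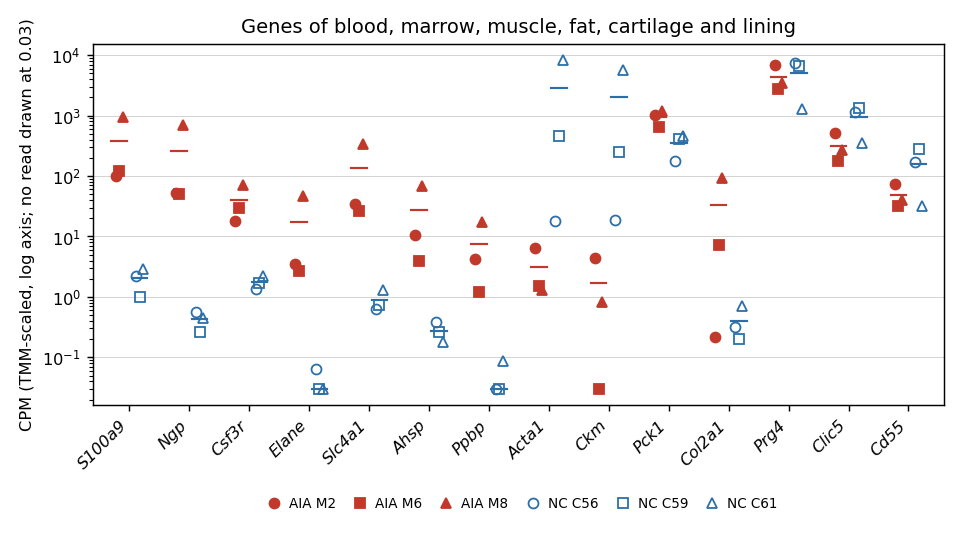
CPM on a log axis of 14 genes of neutrophils, marrow, red cells, platelets, muscle, fat, cartilage and lining in each library, with AIA (red, filled) left of NC (blue, open) and short lines at the group means; a library with no read, or a mean under 0.03, is drawn at 0.03. M8 (red triangle) is the highest library for S100a9 at 937 CPM and Col2a1 at 91.7 CPM, and C61 (blue triangle) for Acta1 at 8195 CPM.

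Circadian clock genes held the 1 gene that fell and several that differed in the same direction. The clock is a feedback loop in which activators bind the E-box CACGTG and switch on their own repressors, Nr1d1 among them, so that output genes cycle with the time of day. Of 21 clock genes 7 were lower in every pair, or 33.3% against 9.22% over all genes, and 2 were higher; the median log2 fold change was -0.37 (-0.19 without C59), and DESeq2 called 6 lower and 1 higher. Dbp, an output transcription factor, had 49.5, 57.5 and 77.3 CPM in M2, M6 and M8, against 117, 234 and 196 CPM in C56, C59 and C61. Tef, of the same family, had 113, 120 and 124 CPM in AIA and 147, 220 and 191 CPM in NC, and Ciart, a repressor, had 0.660, 0.882 and 0.413 CPM in AIA and 1.27, 3.56 and 2.21 CPM in NC. In all of these C56 was the lowest NC library. Nr1d2 had 95.1, 75.7 and 89.8 CPM in AIA and 157, 202 and 137 CPM in NC. Cry2, a repressor of the loop, had 95.1, 84.8 and 83.7 CPM in AIA and 110, 110 and 126 CPM in NC, and Bhlhe41, a repressor that binds E-boxes, had 8.50, 6.18 and 6.41 CPM in AIA and 12.4, 17.1 and 9.70 CPM in NC. The 2 higher genes were Nfil3, which opposes Dbp, at 28.1, 27.7 and 24.1 CPM in AIA and 12.1, 10.1 and 21.4 CPM in NC, and Cry1 at 15.03, 15.3 and 14.3 CPM in AIA and 11.5, 10.3 and 12.1 CPM in NC. The activators overlapped: Arntl had 23.2, 22.3 and 21.99 CPM in AIA and 31.1, 11.0 and 12.8 CPM in NC, and Clock had 42.5, 47.1 and 33.8 CPM in AIA and 35.3, 32.9 and 40.9 CPM in NC. Per1, Per2 and Per3 overlapped too. The labels give no time of day for either group, so the hour of sampling and the group cannot be told apart.

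Promoters of 3 of these genes are shown for the E-box, printed in capitals, over the 250 bases before the RefSeq start in build GRCr8. The windows are chr10:84229455-84229704 on the minus strand for Nr1d1, chr7:115206577-115206826 on the plus strand for Tef and chr2:186112247-186112496 on the minus strand for Ciart.
Nr1d1: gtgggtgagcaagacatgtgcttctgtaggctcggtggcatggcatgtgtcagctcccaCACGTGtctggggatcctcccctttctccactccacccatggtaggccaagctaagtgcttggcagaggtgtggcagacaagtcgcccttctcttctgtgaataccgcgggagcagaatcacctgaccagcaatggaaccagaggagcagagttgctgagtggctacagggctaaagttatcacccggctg
Tef: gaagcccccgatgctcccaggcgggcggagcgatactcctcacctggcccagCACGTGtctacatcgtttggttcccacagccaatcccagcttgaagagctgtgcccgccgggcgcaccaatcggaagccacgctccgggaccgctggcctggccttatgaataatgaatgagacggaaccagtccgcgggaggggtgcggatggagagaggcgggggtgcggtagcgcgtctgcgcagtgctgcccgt
Ciart: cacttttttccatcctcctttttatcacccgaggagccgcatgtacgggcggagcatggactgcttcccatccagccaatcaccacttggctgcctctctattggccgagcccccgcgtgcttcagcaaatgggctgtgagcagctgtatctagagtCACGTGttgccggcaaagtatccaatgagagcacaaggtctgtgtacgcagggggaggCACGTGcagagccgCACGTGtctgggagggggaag
Nr1d1 and Tef hold 1 match each and Ciart holds 3. At least 1 match stands in 5.59% of the 33469 windows and at least 3 in 0.0508%. Nr1d1 has 2 RefSeq windows, of which the 1 printed holds the match. RefSeq windows were found for 17 of the 21 clock genes, and 5 of them hold the letters, including 4 of the 7 genes that were lower in every pair. Bhlhe41 is the fourth, and Dbp, Nr1d2 and Cry2 have none in this window. A match describes the sequence and says nothing of binding.

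Genes of glucocorticoid response and metal binding split. Of 14 tested 5 (35.7%, against 11.2% over all genes) were higher and 1, Mt3, was lower in every pair. The 5 were called higher by DESeq2, and the median log2 fold change was 0.04. Zbtb16, a zinc finger repressor induced by glucocorticoids, had 44.2, 40.9 and 25.7 CPM in M2, M6 and M8, against 9.89, 10.5 and 12.0 CPM in C56, C59 and C61. Fkbp5, a chaperone of the glucocorticoid receptor, had 133, 110 and 74.6 CPM in AIA and 49.1, 55.6 and 42.3 CPM in NC. The metallothionein Mt2A had 130, 82.3 and 39.4 CPM in AIA and 10.7, 15.01 and 6.17 CPM in NC, and Mt1 had 34.7, 36.99 and 21.7 CPM in AIA and 5.77, 7.24 and 8.12 CPM in NC. M8 was the lowest AIA library in each of these. The deposited table places Mt1 on chromosome 17 and RefSeq on chromosome 19, so reads of the near-identical metallothionein copies are uncertain in their split. Tsc22d3, another glucocorticoid target, overlapped at 257, 184 and 155 CPM in AIA and 280, 330 and 180 CPM in NC, as did Per1.

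Immediate early genes, which are switched on within minutes of a stimulus, were lower in every pair in 6 of 23 cases and higher in none. That is 26.1% lower, against 9.22% over all genes, and the median log2 fold change was -0.59. Egr3, a zinc finger transcription factor, had 4.40, 2.71 and 8.48 CPM in M2, M6 and M8, against 19.4, 31.2 and 22.5 CPM in C56, C59 and C61 (log2 fold change -2.23 ± 0.57, SE; adjusted p = 0.13 in edgeR). Jund, a subunit of the AP-1 factor, had 245, 176 and 166 CPM in AIA and 418, 352 and 260 CPM in NC, and Klf2, a factor of quiescent endothelium and lymphocytes, had 227, 151 and 138 CPM in AIA and 268, 251 and 327 CPM in NC. DESeq2 called these 3 lower. Fos, the best known of the list, overlapped at 91.9, 26.3 and 57.3 CPM in AIA and 49.5, 36.9 and 123 CPM in NC. M6 was the lowest AIA library for Egr3, Egr1 and Fos.

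**Figure D5:**
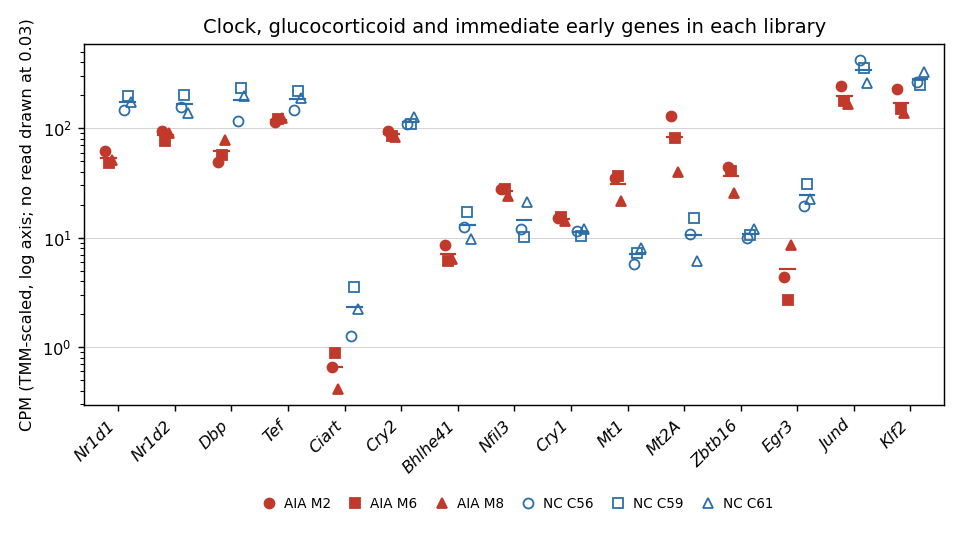
CPM on a log axis of 9 clock genes, 3 glucocorticoid or metal-binding genes and 3 immediate early genes in each library, with AIA (red, filled) left of NC (blue, open) and short lines at the group means. Nr1d1 lies at 47.9 to 61.5 CPM in AIA against 146 to 198 CPM in NC, while Nfil3, Cry1, Mt1, Mt2A and Zbtb16 lie above their NC points.

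Differences held in every pair beyond protein-coding genes too. Of 228 tested lincRNAs 27 were higher and 16 lower in every pair, shares of 11.84% and 7.02%, near those over all genes. Mitochondrial transfer RNAs were lower in every pair in 7 of 16 cases (43.75%, against 9.22% over all genes) and higher in none. Neither mitochondrial ribosomal RNA separated the groups.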

How the data were processed

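RNA of Lewis rat synovium was extracted with RNeasy columns and sequenced from SMARTER mRNA-Seq libraries, per the labels' protocols. Raw read counts, deposited by the authors and not normalised per the file headers, were the input. Their table also holds 9 FPKM columns, which were not used here, and the authors' deposited log2 fold changes with a p-value and a q-value each, used only to count their calls. The submitters' processing notes name fastp, HISAT2, StringTie 1.3.3b and edgeR 3.30.3 without roles. The genome build is not given in the sources used here. The 2 deposited tables are identical.

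Counts were tested in edgeR 4.0.16 under R 4.3.3, with the robust quasi-likelihood fit, TMM factors, genes kept by filterByExpr (15068 of 32883 rows) and 1 mean per group over all 9 libraries; the threshold was 0.05 after Benjamini-Hochberg adjustment. A standard error was taken as the log2 fold change over the root of its F statistic. CPM values use TMM-scaled library sizes, and gaps between libraries were taken on log2 CPM with a prior count of 2. Alternatives used DESeq2 1.42.0 and limma 3.58.1 (voom). Pearson correlations of log2 CPM across genes, which are not independent replicates, were 0.935 to 0.981 within the 2 groups and 0.889 to 0.965 between them. The chi-square of counts was at least 26.2 per gene for each pair of libraries, so none was a repeat of another.

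The 38 gene lists (813 entries, 782 matched to a row by symbol or RefSeq synonym, the rest not analysed here) and the libraries compared were chosen with earlier results of these data known. Genes were named by a rule: those that passed, the 10 smallest p and the 10 widest gaps in each direction where the higher group averaged 5 CPM or more and libraries did not overlap, the 3 smallest p of each list with at least 1 CPM, and Acp5, Ccl2, Il1b, Il6, Mmp13, Mmp3, Prg4 and Tnf. Other list members in the text were chosen after their values were seen. Some genes that the rule names are not reported here.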

Additional observations from a re-analysis of the deposited data

How the results depend on the processing

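edgeR's calls, 1 higher and 1 lower in AIA, were the same with RLE or upper-quartile factors and with a filter of 1 CPM in 3 libraries. The counts of higher and lower calls were 3 and 1 without the filter on low counts, 1 and 0 with only the AIA and NC libraries, 2 and 1 without C61 and M8, 0 and 0 with the libraries matched by number (which leave M6 alone in AIA, assumed to vary like the others), 134 and 49 at an adjusted p under 0.1, 574 and 356 in DESeq2, and 0 and 1 in limma-voom. Leaving out C61, M8 and G48, an alternative chosen after seeing the data, gave 94 and 86. With 1 library left out the calls ran from 0 to 90 higher and from 0 to 8 lower. The cause was not tested. Neither Plac8 nor Nr1d1 passed with only the AIA and NC libraries (adjusted p in edgeR 0.125 for both; the call was C3) or without C61 and M8 (0.0843 for both; the calls were Tpd52, Slc4a1 and Dact2), and the lower call in limma-voom was Nr1d1. The log2 fold changes of Plac8 and Nr1d1 kept their direction in all of these.

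Genes higher and lower in every pair numbered 3906 and 3782 without C61 and M8, and 2144 to 3157 and 1778 to 2921 with 1 library left out, where fewer pairs have to hold. At least 2-fold apart were 348 higher and 177 lower genes without C61 and M8, 244 to 496 and 66 to 136 with 1 library left out, and 55 lower genes without the filter, where more genes are counted. With counts under 3 set to 3 reads, also chosen after seeing the data, they numbered 215 and 43. Of 124 genes followed, 9 changed direction, none of which had passed. Their log2 fold changes with 1 library left out ran from -1.37 (without M8) to 4.67 for Bglap, -0.0811 (without C61) to 0.659 for C1qa, -0.351 (without C61) to 0.412 for Ctsk, also -0.0126 without M6, -0.741 to 0.436 (without C61) for Fos, also 0.0964 without M6, -0.427 to 0.329 (without C61) for Foxp3, -0.0083 (without M6) to 1.40 for Il6, -0.676 to 0.0615 (without C59) for Per1 and -0.708 to 0.138 (without C56) for Prg4, also 0.0311 without M6 and 0.0301 without C59. Without C61 and M8, and in brackets without G48 too, they were -1.41 for Bglap, -0.358 (-0.357) for Ctsk, 0.445 (0.444) for Fos and 0.301 (0.303) for Foxp3. With the libraries matched by number they were -0.864 for Bglap, 0.0311 for Foxp3 and -0.0185 for Mpo. In limma-voom Prg4 stood at 0.0973. Of the 38 list medians, 13 changed sign under some setting. No paired analysis was possible because the labels give the groups no shared replicate numbers.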

Other observations

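Some genes in none of the lists are given here, chosen after their values were seen. Rag1, a recombinase of developing B and T cells, had 0.440, 0.475 and 7.37 CPM in M2, M6 and M8 and no NC read, and Dntt, the DNA polymerase of the same stage, had 0.220, 0.204 and 4.62 CPM in AIA and no NC read. Both stood highest in M8, like the granulocyte precursor genes. In M2 and M6 neither was 2-fold above the 0.265 CPM that a count of 0 allows in C61.

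The other genes were not highest in M8 and lay at least 2-fold apart in every library pair. Chi3l1, a secreted lectin of inflamed joint cells, had 336, 461 and 208 CPM in M2, M6 and M8 and 15.7, 41.8 and 9.88 CPM in C56, C59 and C61. Slpi, an inhibitor of leukocyte elastase, had 11.9, 29.6 and 18.5 CPM in AIA and 0.634, 1.12 and 1.59 CPM in NC. Kng1, a kininogen, had 3.37, 14.9995 and 1.31 CPM in AIA and 0.254, 0.0658 and 0 CPM in NC. In the lower direction Apln, the vascular peptide apelin, had 5.13, 5.29 and 3.93 CPM in AIA and 30.6, 11.1 and 38.1 CPM in NC, and Bmp6, a bone morphogenetic protein, had 9.46, 10.2 and 8.89 CPM in AIA and 21.4, 21.6 and 27.3 CPM in NC. None of these genes passed edgeR's adjusted p under 0.05; DESeq2 called each of the 7.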
